A study of Mus musculus with 4 samples.

Results

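Libraries made from CD4+ T cells sorted from the liver held 28247 cells, and 267 of them met the rule below. These 267 held RNA of *Foxp3*, the lineage factor of regulatory T cells. They also held RNA of *Ifng* or *Il17a*, the signature cytokines of Th1 and Th17 cells. They are called Foxp3+ cytokine+ cells here. A cell entered this class with over 200 detected genes, under 5% mitochondrial UMIs, at least 1 UMI of *Foxp3*, at least 1 UMI of *Ifng* or *Il17a*, at least 1 UMI of *Cd3e*, *Cd3d* and *Cd3g* combined, and no UMI of *Siglech* or *Lyz2*. A UMI, or unique molecular identifier, stands for 1 captured mRNA molecule, and the last 2 genes mark plasmacytoid dendritic cells and myeloid cells. The library labelled WT gave 84 of these cells out of 10602, and the library labelled dKO gave 183 out of 17645. These totals cover all cells of a library, and 7445 WT and 11431 dKO cells passed the filters and the *Cd3*, *Siglech* and *Lyz2* gates. The Foxp3+ cytokine+ cells were thus chosen by the measured UMIs of these 8 genes, whose levels are given as a description only. The 3 genes that define the class lie at chrX:7573644-7595245 (*Foxp3*), chr10:118441046-118445892 (*Ifng*) and chr1:20730905-20734496 (*Il17a*) in GRCm38, all on the plus strand and all protein coding.

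Tregs restrain immune responses through surface molecules such as CTLA-4, through capture of IL-2 by CD25 and through secreted mediators. In non-lymphoid tissue many of them carry the IL-33 receptor ST2 (*Il1rl1*) and KLRG1 and make amphiregulin (*Areg*), a growth factor linked to tissue repair. A minor fraction of *Foxp3*-expressing cells is known to make IFN-γ or IL-17A under inflammation, and such cells carry parts of both the Treg and the helper programme. In droplet data the same pattern can also arise when 2 cells share a droplet or when free RNA enters it.

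Both libraries were made from mice on a choline-deficient diet with 60 kcal% fat and 0.1% methionine, which was used to induce steatohepatitis (NASH). The dKO mice carried *Nr4a1* fl/fl and *Nr4a2* fl/fl alleles with *Cd4*-Cre, which acts in all αβ T cells that pass through a CD4-expressing thymocyte stage, and the labels do not state the alleles or Cre status of the WT mice. Hepatic CD4+ T cells of 2 male mice were pooled per genotype, the mice of a pool cannot be separated in the data, and RNA and T cell receptor (TCR) libraries were prepared from the same cells. With 1 RNA library per genotype there was no replicate, so no difference between the genotypes, or between classes of cells within a library, was tested, and every interval given here is an exact 95% interval that covers counting error only.

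The libraries had a median of 1676.5 (WT) and 1671 (dKO) UMIs per cell, and 245 cell barcodes occurred in both, among them the barcodes of 4 WT and 2 dKO Foxp3+ cytokine+ cells. The targeted genes did not separate the libraries in the direction of their labels. In Foxp3+ cytokine+ cells *Nr4a1* stood at 1103 CPM (counts per 1000000 UMIs of the class) in the library labelled WT and 2240 CPM in the library labelled dKO, and *Nr4a2* at 157 and 439 CPM. A UMI total over a whole gene also counts transcripts that lack a deleted segment, and the position of the deleted exons was not used here. The genotypes are therefore named as labels throughout. *Foxp3* was found in 6.42% (5.87% to 7.0%) of 7445 T cells of the library labelled WT and in 27.9% (27.0% to 28.7%) of 11431 of the library labelled dKO.

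TCR sequences tie single cells to clones, and those of 6 clonotypes that held Foxp3+ cytokine+ cells are shown because they carry the lineage results given further on. A clonotype was the set of T cells of 1 library with the same nucleotide sequence of the TRA and TRB CDR3. The CDR3 is the loop formed where V and J segments join, in TRB with a D segment between them. Lower case marks bases that match the start of the V segment or the end of the J segment in the GENCODE M21 transcripts (GRCm38). Capitals mark the junction bases that match neither, which in TRB can include bases of the D segment. The cells of WT clonotype 1 with both chains were all Foxp3+ cytokine+, WT clonotype 2 and dKO clonotype 6 were mainly clones of *Foxp3*-negative cells, dKO clonotypes 4 and 5 held further *Foxp3* cells and no Foxp3- cytokine+ cell, and dKO clonotype 1 was the largest clone of its library.
WT clonotype 1 TRA, TRAV4-3 with TRAJ17: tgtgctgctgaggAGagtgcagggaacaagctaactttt
WT clonotype 1 TRB, TRBV13-3 with TRBJ2-7: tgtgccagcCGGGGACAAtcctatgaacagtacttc
WT clonotype 2 TRA, TRAV4-4-DV10 with TRAJ13: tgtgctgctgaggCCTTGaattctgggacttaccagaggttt
WT clonotype 2 TRB, TRBV1 with TRBJ2-5: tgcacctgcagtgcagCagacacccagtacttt
dKO clonotype 1 TRA, TRAV6-1 with TRAJ30: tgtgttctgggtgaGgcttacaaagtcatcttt
dKO clonotype 1 TRB, TRBV13-1 with TRBJ2-4: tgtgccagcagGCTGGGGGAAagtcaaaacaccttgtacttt
dKO clonotype 4 TRA, TRAV16N with TRAJ34: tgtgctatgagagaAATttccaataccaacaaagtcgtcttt
dKO clonotype 4 TRB, TRBV1 with TRBJ2-2: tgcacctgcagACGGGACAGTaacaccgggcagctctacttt
dKO clonotype 5 TRA, TRAV6-7-DV9 with TRAJ49: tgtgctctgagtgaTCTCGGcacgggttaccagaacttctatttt
dKO clonotype 5 TRB, TRBV1 with TRBJ2-1: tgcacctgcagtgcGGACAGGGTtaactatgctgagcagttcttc
dKO clonotype 6 TRA, TRAV16N with TRAJ6: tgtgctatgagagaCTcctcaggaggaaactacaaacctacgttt
dKO clonotype 6 TRB, TRBV19 with TRBJ2-7: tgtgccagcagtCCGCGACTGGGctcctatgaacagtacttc

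Foxp3+ cytokine+ cells mostly carried *Ifng*. In the library labelled WT, 57 had *Ifng* alone, 23 had *Il17a* alone and 4 had both, and in the library labelled dKO the numbers were 119, 60 and 4. The share with *Il17a* alone was 27.4% (18.2% to 38.2%) in WT and 32.8% (26.0% to 40.1%) in dKO. Among cytokine cells without *Foxp3* (Foxp3- cytokine+ cells) that share was 8.86% (7.58% to 10.3%) of 1784 in WT and 28.6% (25.9% to 31.4%) of 1073 in dKO. The WT intervals lay apart, with the larger *Il17a* share in cells with *Foxp3*, and the dKO intervals overlapped.

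Most of these cells passed the rule by a narrow margin. A single *Foxp3* UMI was found in 45 of 84 WT and 95 of 183 dKO cells, a single cytokine UMI in 36 and 105, and a single UMI of each in 18 and 54. At least 2 UMIs of *Foxp3* and at least 2 of a cytokine were found in 21 WT and 37 dKO cells. *Foxp3* counts ranged from 1 to 7 in WT and from 1 to 6 in dKO. *Ifng*, where present, had a median of 1 UMI in both libraries with a highest value of 16 in WT and 10 in dKO, and *Il17a* had a median of 3 UMIs and a highest value of 17 in WT against a median of 4 and a highest value of 134 in dKO. That 1 dKO cell gave 134 of the 662 *Il17a* UMIs of its class. On the outer side of the rule lay 394 WT and 3001 dKO cells with *Foxp3* and no cytokine UMI (Foxp3+ cytokine- cells), of which 57.9% and 58.4% had a single *Foxp3* UMI, and the Foxp3- cytokine+ cells, of which 50.5% and 51.3% had a single cytokine UMI. The gates against other cells were passed by 84 of 100 WT (84%) and 183 of 221 dKO (82.8%) cells with *Foxp3* and a cytokine. Of these candidates 5 and 17 had *Siglech* (5% and 7.69%) and 10 and 21 had *Lyz2* (10% and 9.50%). In each library 1 lacked all 3 *Cd3* genes.

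A smaller share of *Foxp3* cells than of T cells without *Foxp3* had a cytokine UMI, in both libraries and in each of 3 ranges of depth. In all, 17.6% (14.3% to 21.3%) of 478 WT and 5.75% (4.96% to 6.61%) of 3184 dKO *Foxp3* cells were Foxp3+ cytokine+, against 25.6% (24.6% to 26.6%) and 13.0% (12.3% to 13.8%) of the T cells without *Foxp3*. The share was higher in deeper cells, and Foxp3+ cytokine+ cells were the deepest class, with a median of 3792.5 UMIs in WT and 2837 in dKO, while Foxp3+ cytokine- cells had 2015 and 1540 and Foxp3- cytokine+ cells had 2026.5 and 1624. Among WT cells with 500 to under 1500, 1500 to under 3000, and 3000 or more UMIs, 8.33%, 14.7% and 28.5% of *Foxp3* cells had a cytokine UMI, against 18.0%, 26.2% and 41.6% of cells without *Foxp3*. The dKO values were 2.17%, 5.59% and 15.2% against 9.01%, 17.2% and 29.4%. Within each of these 6 ranges of depth the interval of the *Foxp3* cells lay below that of the cells without *Foxp3*. In WT the intervals overlapped for cells with TRA and exactly 1 TRB chain (22.9%, 16.3% to 30.7%, against 29.0%, 26.8% to 31.3%), for 1 cell per clonotype (20.4%, 14.0% to 28.2%, against 27.0%, 24.4% to 29.6%), with at least 2 *Foxp3* UMIs (19.0%, 13.9% to 25.1%, against 25.6%) and with at least 2 cytokine UMIs (10.5%, 7.76% to 13.7%, against 14.5%, 13.6% to 15.4%). In dKO they lay apart under each of these 4 conditions. After each cell was thinned to 2000 UMIs the shares were 17.0% against 25.7% in WT and 7.68% against 17.6% in dKO, with 20 Foxp3+ cytokine+ and 196 Foxp3+ cytokine- cells of WT and 59 and 1927 of dKO too shallow to enter. Multiplying the share of *Foxp3* cells by the share of cytokine cells within 20 bins of depth gave 138 cells in WT and 397 in dKO, so the 84 and 183 cells found were 0.611 and 0.460 of that product.

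**Figure D1:**
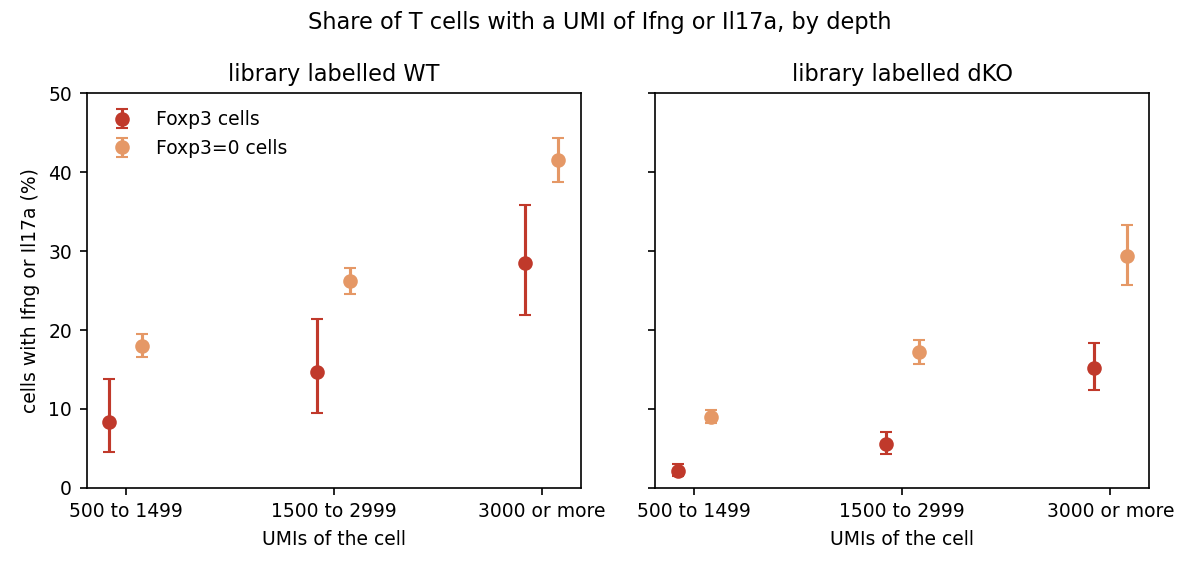
Share of T cells with at least 1 UMI of *Ifng* or *Il17a* (y axis, percent) in 3 ranges of UMIs per cell (x axis), for *Foxp3* cells and for cells without *Foxp3*, in each library. Points are shares and bars exact 95% binomial intervals for counting error; the share climbed with depth in both kinds of cells, to 28.5% (WT) and 15.2% (dKO) of *Foxp3* cells with 3000 or more UMIs, and stayed below that of cells without *Foxp3*.

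Single UMIs of the 3 genes were also found in cells that should lack them. Of the cells with *Lyz2* and without *Cd3* and *Siglech* UMIs, 2 of 204 in WT (0.980%) and 10 of 262 in dKO (3.82%) had a *Foxp3* UMI, and 8 (3.92%) and 1 (0.382%) had a cytokine UMI. Of the cells with *Siglech* and without *Cd3* and *Lyz2* UMIs, 2 of 1099 in WT (0.182%) and 25 of 2914 in dKO (0.858%) had a *Foxp3* UMI, and 11 (1.0%) and 15 (0.515%) had a cytokine UMI. A T cell that truly has one of the genes needs only 1 free UMI of the other to enter the class, so these shares stand beside the 17.6% and 5.75% of *Foxp3* cells with a cytokine UMI and the 4.50% (3.60% to 5.54%) of WT and 14.6% (12.7% to 16.6%) of dKO cytokine cells with a *Foxp3* UMI. The median depth of these cells was 1524 (*Lyz2*) and 1534 (*Siglech*) UMIs in WT and 3052.5 and 2899.5 UMIs in dKO, so the dKO background cells were deeper than the dKO Foxp3+ cytokine+ cells and the WT ones shallower than theirs. Foxp3+ cytokine+ cells made up 1.13% (0.901% to 1.40%) of the WT and 1.60% (1.38% to 1.85%) of the dKO T cells.

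A doublet score marked more of the dKO than of the WT cells. The shares with more than 1 TRB chain, among cells with any, lay close together in the 2 libraries. The score marks a fixed share of each library that grows with its number of cells, 8.44% of all kept WT and 14.0% of all kept dKO cells, so the libraries differ in it by construction. The score or at least 2 productive TRB chains marked 14 of 84 WT cells (16.7%, 9.42% to 26.4%) and 88 of 183 dKO cells (48.1%, 40.7% to 55.6%), against 42 of 394 (10.7%) and 471 of 3001 (15.7%) Foxp3+ cytokine- cells and 223 of 1784 (12.5%) and 146 of 1073 (13.6%) Foxp3- cytokine+ cells. At 3000 or more UMIs the score marked 57 of 88 dKO cells against 179 of 490 Foxp3+ cytokine- cells, and 10 of 49 WT cells against 19 of 123. The score is computed from the expression profile, so a cell with genes of 2 types can be marked without being a doublet. Receptor chains do not depend on the profile: at least 2 TRB chains occurred in 2 of 40 WT (5%, 0.611% to 16.9%) and 4 of 79 dKO (5.06%, 1.40% to 12.5%) Foxp3+ cytokine+ cells with a TRB chain, in 13 of 175 (7.43%) and 27 of 952 (2.84%) Foxp3+ cytokine- cells and in 66 of 814 (8.11%) and 10 of 382 (2.62%) Foxp3- cytokine+ cells. These intervals overlapped in every case. Without the marked cells, 70 WT and 95 dKO Foxp3+ cytokine+ cells were left, which were 16.6% and 3.62% of the *Foxp3* cells. How much of the class came from shared droplets or free RNA was not tested.

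Genes of CD8 T cells, hepatocytes, red cells and platelets were at or near 0 in these cells, while myeloid, B cell, plasmacytoid dendritic cell and endothelial lists had measurable levels. No UMI of *Cd8a* and none of 6 erythroid and platelet genes was found in either library, *Cd8b1* gave 3 UMIs in WT and 11 in dKO, and 9 hepatocyte genes summed to 3 UMIs in WT and 2 in dKO. The summed level of 15 myeloid genes was 288 CPM in WT and 263 CPM in dKO, below the 368 and 417 CPM of the Foxp3+ cytokine- cells and the 314 and 459 CPM of the Foxp3- cytokine+ cells, with *Adgre1*, *Clec4f* and *Lyz1* at 0 in both libraries. *Cst3* alone gave 58 of the 97 UMIs of the myeloid list in WT and 116 of 165 in dKO. The summed level of 6 B cell genes was 228 CPM in WT and 124 CPM in dKO, below the 295 and 141 CPM of Foxp3+ cytokine- cells and above the 105 and 44.0 CPM of Foxp3- cytokine+ cells. *Ighm*, an immunoglobulin heavy chain gene, gave 75 of the 77 UMIs of that list in WT and 51 of 78 in dKO, and *Cd79a* and *Ms4a1* were at 0 in WT. The 9 plasmacytoid dendritic cell genes summed to 264 and 493 CPM, against 306 and 507 CPM in Foxp3+ cytokine- and 323 and 411 CPM in Foxp3- cytokine+ cells. Of the 89 WT and 309 dKO UMIs of this list, *Bst2* gave 29 and 109 and *Runx2* gave 51 and 139. In WT *Klk1*, *Cox6a2*, *Cd300c* and *Ly6d* were at 0. Of 7 endothelial and stellate genes only *Pecam1*, which T cells can also express, was found, at 116 CPM in WT and 54.3 CPM in dKO against 88.6 and 52.1 CPM in Foxp3+ cytokine- cells. The part of such RNA in the results was not tested. The invariant receptor of NKT cells (TRAV11 with TRAJ18) was found in 0 of 39 WT and 0 of 67 dKO Foxp3+ cytokine+ cells with a TRA chain, which with a floor of 3 cells allows up to 7.69% and 4.48%, and in 19 of 631 WT and 14 of 279 dKO Foxp3- cytokine+ cells.

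To see what these cells shared with other *Foxp3* cells, their summed UMIs were compared with those of the Foxp3+ cytokine- cells of the same library. A gene was measured with at least 50 CPM in either class, the level minimum, and 20 UMIs over both. Of 3861 genes compared in WT, 64 were at least 2-fold higher (1.66%) and 35 at least 2-fold lower (0.907%) in Foxp3+ cytokine+ cells, and of 3658 genes in dKO 35 were higher (0.957%) and 11 lower (0.301%). The median log2 ratio over all genes was 0.05 in WT and 0.01 in dKO. Scaling by TMM factors lowered every log2 ratio by 0.05 in WT and 0.10 in dKO, and the split of higher and lower genes then became 52 to 43 in WT and 27 to 20 in dKO. The WT split turned with a level minimum of 20 CPM, to 196 higher and 228 lower, and after thinning to 2000 UMIs, to 144 higher and 198 lower, where dKO had 64 and 62.

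The core Treg genes were present in both libraries, most of them somewhat below the level of other *Foxp3* cells. None of the 14 (WT) and 17 (dKO) genes measured of the 19 on this list differed 2-fold. The median log2 ratio was -0.26 in WT and -0.37 in dKO, beside 0.05 and 0.01 over all genes. The interval lay below 0 for 6 genes in WT and 13 in dKO and above 0 for 2 in WT and 1 in dKO. The share of all genes with such intervals is not given here, so these counts describe the list only. Those above were the costimulatory receptor gene *Icos*, with 0.29 (0.11 to 0.47) in WT and 0.15 (0.02 to 0.29) in dKO, and *Il2rb*, with 0.38 (0.11 to 0.64) in WT. *Ctla4*, which encodes the inhibitory receptor CTLA-4, stood at 1375 CPM in WT Foxp3+ cytokine+ cells and 1351 CPM in Foxp3+ cytokine- cells (log2 ratio 0.03, -0.13 to 0.18), and at 2041 against 2327 CPM in dKO (-0.19, -0.27 to -0.11). *Il2ra*, the CD25 chain of the IL-2 receptor, stood at 276 against 269 CPM in WT (0.04, -0.32 to 0.38) and 161 against 202 CPM in dKO (-0.33, -0.64 to -0.04). *Ikzf2*, which encodes Helios, was lower in both libraries, at 617 against 990 CPM in WT (-0.68, -0.90 to -0.47) and 894 against 1157 CPM in dKO (-0.37, -0.50 to -0.25). *Tnfrsf4* (OX40) was lower as well, with log2 ratios of -0.72 (-0.96 to -0.49) in WT and -0.65 (-0.75 to -0.55) in dKO, and so was the costimulatory receptor gene *Tnfrsf9* with -0.45 (-0.75 to -0.17) and -0.76 (-0.91 to -0.61), although its WT ratio turned to 0.063 in cells with at least 2 UMIs of *Foxp3* and of a cytokine.

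The genes of tissue Tregs separated the libraries more than the core genes. Over the 11 WT and 12 dKO genes measured of 14, the median log2 ratio was -0.20 in WT and -0.70 in dKO. *Areg* stood at 611 against 590 CPM in WT (0.05, -0.18 to 0.28) and at 469 against 824 CPM in dKO (-0.81, -0.99 to -0.64). *Klrg1*, a receptor of effector Tregs, stood at 370 against 291 CPM in WT (0.35, 0.04 to 0.65) and at 266 against 515 CPM in dKO (-0.95, -1.19 to -0.73). The chemokine receptor gene *Ccr8* had log2 ratios of -0.20 (-0.63 to 0.21) and -0.80 (-1.01 to -0.59), and *Penk*, the proenkephalin gene, was the only one of the list with a 2-fold difference, at 35.1 against 116 CPM in dKO (-1.73, -2.41 to -1.12), where it reached the level minimum only in the Foxp3+ cytokine- cells. WT *Penk*, with 12 UMIs in the class, stayed under the level minimum.

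Several Th1 and cytotoxic genes were higher than in other *Foxp3* cells. Of the 26 genes, 18 were measured in WT, with 9 at least 2-fold higher and none lower, but 7 of the 18 reached the level minimum only in the Foxp3+ cytokine+ cells, so that they had to be higher there. Of the 11 genes that reached it in both classes 2 were at least 2-fold higher, with a median log2 ratio of 0.30. In dKO 14 were measured, with 4 at least 2-fold higher and none lower, and 3 of the 14 reached the minimum only in the Foxp3+ cytokine+ cells. Of the 11 that reached it in both classes 1 was at least 2-fold higher, with a median of 0.11. *Ccl5*, a chemokine of effector T cells, stood at 1755 against 524 CPM in WT (1.74, 1.57 to 1.91) but at 4198 against 3909 CPM in dKO (0.10, 0.04 to 0.16), where the dKO Foxp3+ cytokine- cells themselves had a high level and the ratio turned to -0.073 in cells with at least 2 UMIs of *Foxp3* and of a cytokine. *Nkg7*, a cytotoxic granule gene, stood at 448 against 205 CPM in WT (1.13, 0.82 to 1.44) and 785 against 575 CPM in dKO (0.45, 0.31 to 0.59). *Tbx21*, the Th1 lineage factor T-bet, stood at 91.9 against 42.4 CPM in WT (1.12, 0.41 to 1.81) and at 94.1 against 80.6 CPM in dKO (0.22, -0.19 to 0.62). In WT *Tbx21* reached the level minimum only in the Foxp3+ cytokine+ cells, so that it had to be higher there. *Klrk1*, the gene of the activating receptor NKG2D, had a log2 ratio of 2.07 (1.13 to 3.04) in WT, and the Fas ligand gene *Fasl* one of 1.54 (0.84 to 2.23). WT *Klrk1* and *Fasl* also reached the level minimum only in the Foxp3+ cytokine+ cells. In WT cells with at least 2 *Foxp3* and 2 cytokine UMIs, the ratios of *Tbx21* and *Klrk1* turned to -0.98 and -0.66.

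Genes linked to Th17 cells showed no 2-fold difference where they were measured in both classes. Of 20 genes, 12 were measured in WT and 10 in dKO, and 3 were at least 2-fold higher in each and none 2-fold lower. All of those counted as higher reached the level minimum only in the Foxp3+ cytokine+ cells. Over the 7 WT and 5 dKO genes that reached it in both classes none differed 2-fold, and the median log2 ratios were 0.19 and -0.16. Values follow for genes that reached it only in the Foxp3+ cytokine+ cells. *Il17f*, the closest relative of *Il17a*, gave 19 UMIs in 5 WT cells and none in Foxp3+ cytokine- cells, which makes it at least 19.9-fold higher with a floor of 3 UMIs over that class, and in dKO it stood at 207 against 0.654 CPM (8.31, 6.92 to 10.2). The comparison class was chosen to lack *Il17a*, so the 2 genes are not independent here. *Il23r*, the receptor of the Th17-sustaining cytokine IL-23, stood at 50.4 against 13.2 CPM in WT (1.93, 0.83 to 3.06), and *Il1r1*, an IL-1 receptor, at 56.3 against 17.0 CPM (1.73, 0.72 to 2.75). *Tmem176a*, an ion channel gene of the Th17 list, was higher in both libraries, at 91.9 against 38.6 CPM in WT (1.25, 0.53 to 1.96) and 86.2 against 24.4 CPM in dKO (1.82, 1.35 to 2.28).

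**Figure D2:**
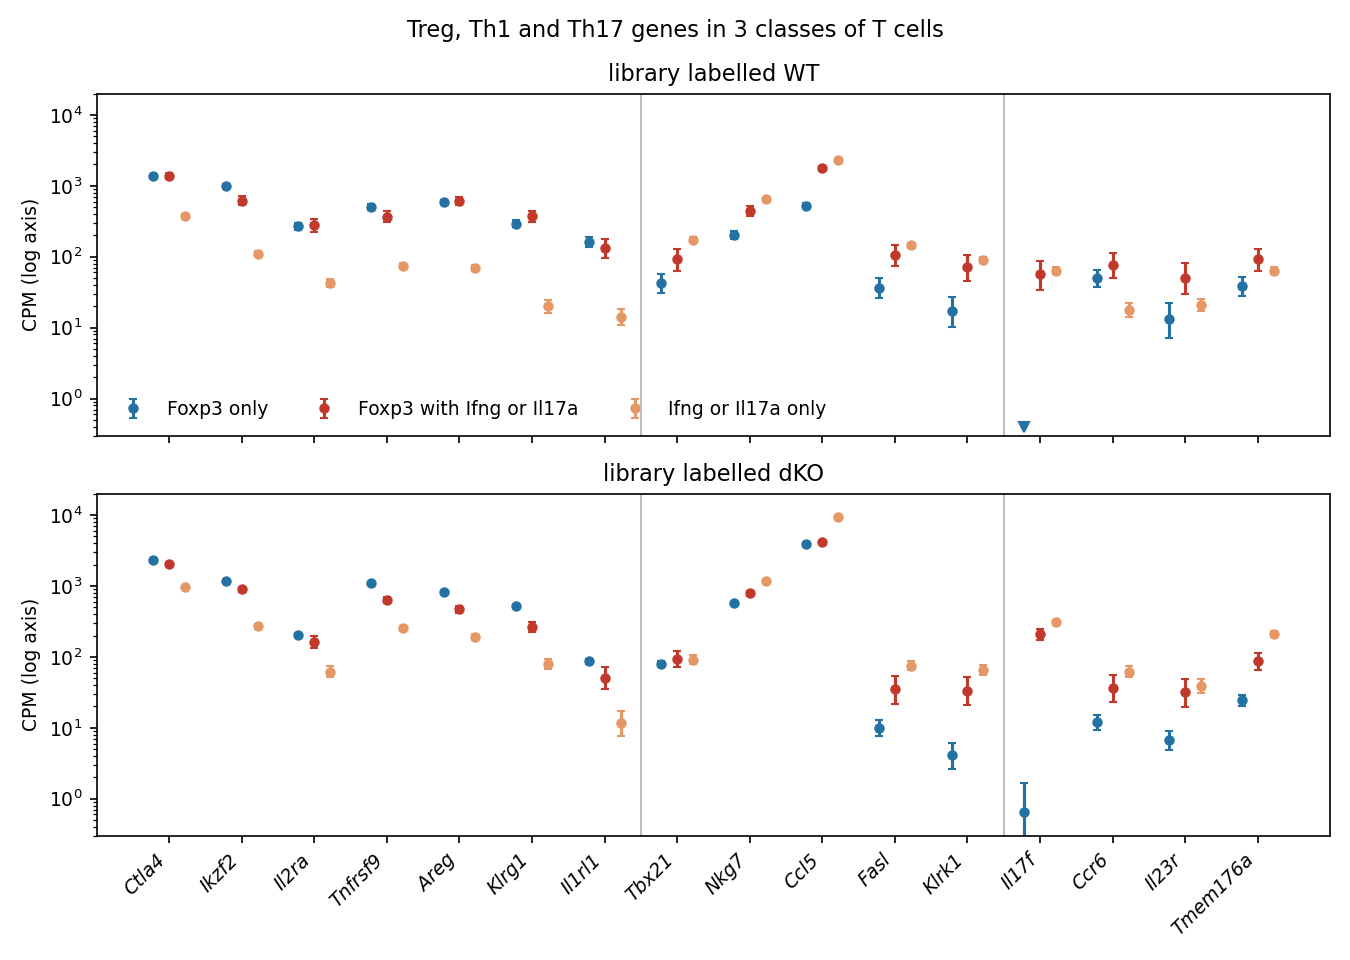
Levels of 16 genes (x axis) in CPM (y axis, log scale), in Foxp3+ cytokine- cells, Foxp3+ cytokine+ cells and Foxp3- cytokine+ cells of each library, with exact 95% Poisson intervals as bars; the triangle marks WT *Il17f* at 0 UMIs, and vertical lines separate Treg, Th1 and Th17 genes. *Ctla4* stood at 1375 CPM in WT Foxp3+ cytokine+ cells, beside 1351 CPM in Foxp3+ cytokine- and 378 CPM in Foxp3- cytokine+ cells, while *Ccl5* at 1755 CPM lay between 524 and 2324 CPM.

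Cell cycle genes were higher than in other *Foxp3* cells in the dKO library. Of 12 cell cycle genes 11 were measured in each library. The median log2 ratio to Foxp3+ cytokine- cells was 0.57 in dKO and 0.18 in WT, beside 0.01 and 0.05 over all genes. In dKO all 11 ratios and 10 intervals lay above 0 and 2 genes were at least 2-fold higher, beside 0.957% of all genes. In WT 6 ratios and 1 interval lay above 0. The share of all genes with intervals above 0 is not given here, so these counts describe the list only. In dKO 2 of the 11, *Mcm5* among them, reached the level minimum only in the Foxp3+ cytokine+ cells, and over the other 9 the median was 0.57 with 1 gene at least 2-fold higher. In dKO *Mki67*, a marker of cycling cells, stood at 220 against 135 CPM (0.70, 0.43 to 0.96), *Rrm2*, needed for nucleotide synthesis, at 113 against 50.5 CPM (1.17, 0.77 to 1.54), and *Mcm5*, of the replicative helicase, at 74.99 against 37.1 CPM (1.02, 0.53 to 1.47). Without the marked doublets the dKO median was 0.98 over 12 genes. In WT *Mki67* stood at 442 against 249 CPM (0.83, 0.53 to 1.12), with 32 of its 149 UMIs in 1 cell, while *Pclaf* and *Ube2c* had ratios of -0.99 (-1.66 to -0.37) and -0.85 (-1.31 to -0.42). The WT ratio of *Pclaf* turned to 0.031 in cells with at least 2 UMIs of *Foxp3* and of a cytokine. Genes of naive and central memory cells had medians of -0.08 in WT and 0.32 in dKO over the 9 and 7 genes that reached the level minimum in both classes. *Tcf7*, the TCF-1 gene, which in dKO reached the minimum only in the Foxp3+ cytokine+ cells and is not in that median, stood at 73.4 against 35.6 CPM in dKO (1.04, 0.55 to 1.51) and 148 against 123 CPM in WT (0.26, -0.24 to 0.74), and *Ccr7*, a lymph node homing receptor gene, at 84.6 against 57.7 CPM in dKO (0.55, 0.11 to 0.97) but 41.5 against 139 CPM in WT (-1.75, -2.66 to -0.96). WT *Ccr7* reached the level minimum only in the Foxp3+ cytokine- cells. The dKO ratio of *Tcf7* was 0.23 once cells were thinned to 2000 UMIs and 1.62 without the marked doublets. In cells with at least 2 UMIs of *Foxp3* and of a cytokine it was 0.50.

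Across the whole transcriptome, 51 genes were higher and 37 lower than in Foxp3+ cytokine- cells with intervals on the same side of 0 in both libraries. Ranked by the smaller of the 2 differences, the higher end held *Il17f*, *Ccl4*, *Ccl3*, *Hist1h2ab*, *Tmem176a*, *Ly6c2*, *Ehd3*, *Sidt1*, *Furin* and *Lpp*. All of them reached the level minimum only in the Foxp3+ cytokine+ cells of 1 or both libraries, where they had to be higher. This held for *Ccl4* in WT, for *Sidt1*, *Furin* and *Lpp* in dKO, and for the others in both. The inflammatory chemokine gene *Ccl4* stood at 101 against 34.9 CPM in WT (1.53, 0.82 to 2.24) and 881 against 329 CPM in dKO (1.42, 1.28 to 1.56), where 213 of 552 UMIs came from 1 cell and the ratio without it was 0.73. The dKO ratio of *Ccl4* was 0.41 without the marked doublets and turned to -0.19 in cells with at least 2 UMIs of *Foxp3* and of a cytokine. *Ccl3*, its neighbour, was higher by 5.46 (3.47 to 8.58) in WT, with 22 of 28 UMIs in 1 cell and a ratio of 3.25 without it, and by 1.33 (0.91 to 1.74) in dKO. Without the cell with the most *Ccl3* UMIs the dKO ratio was 0.85. After thinning to 2000 UMIs the WT ratio was 2.63. *Furin*, which encodes a proprotein convertase, stood at 124 against 71.6 CPM in WT (0.80, 0.22 to 1.36) and 102 against 43.3 CPM in dKO (1.24, 0.82 to 1.64). *Sidt1* had ratios of 1.01 and 0.94, and its dKO ratio turned to -0.75 without the marked doublets. The lower end held *Frmd5*, *Cd74*, *Tnfrsf4*, *Cd200r1*, *Sik1*, *Cd83*, *Cd81*, *Rrad*, *Pmepa1* and *Arl5a*. Of these, *Frmd5* and *Cd200r1* reached the level minimum only in the Foxp3+ cytokine- cells of both libraries. *Cd74*, the invariant chain of MHC class II, stood at 175 against 281 CPM in WT (-0.68, -1.11 to -0.28) and 535 against 956 CPM in dKO (-0.84, -1.0 to -0.68), and *Frmd5* at 38.5 against 126 CPM in WT (-1.71, -2.66 to -0.89) and 28.7 against 84.8 CPM in dKO (-1.56, -2.33 to -0.89).

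Against Foxp3- cytokine+ cells, Treg genes were higher in both libraries. Of 3857 genes in WT, 109 were at least 2-fold higher (2.83%) and 50 at least 2-fold lower (1.3%) in Foxp3+ cytokine+ cells, and of 3636 genes in dKO 73 were higher (2.01%) and 35 lower (0.963%). TMM factors lowered the log2 ratios by 0.08 in WT and 0.13 in dKO, and the splits then were 93 to 66 and 46 to 45. Of the core Treg genes 7 of 14 measured in WT and 5 of 15 in dKO were at least 2-fold higher and none lower. Over the 13 and 15 genes that reached the level minimum in both classes the medians were 0.94 and 0.79, beside 0.04 and 0.06 over all genes. *Il2ra* stood at 276 against 42.9 CPM in WT (2.68, 2.32 to 3.04) and 161 against 62.2 CPM in dKO (1.37, 0.99 to 1.76), *Ikzf2* at 617 against 110 CPM (2.48, 2.25 to 2.72) and 894 against 269 CPM (1.73, 1.56 to 1.90), and *Ctla4* at 1375 against 378 CPM (1.87, 1.71 to 2.01) and 2041 against 971 CPM (1.07, 0.97 to 1.17). WT *Il2ra* reached the level minimum only in the Foxp3+ cytokine+ cells, so that it had to be higher there.

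Of the tissue Treg genes 5 of 11 measured were at least 2-fold higher in each library and none 2-fold lower, namely *Klrg1*, *Il1rl1*, *Itgae*, *Areg* and *Cd83*. All of these but *Areg* in WT, and *Il1rl1* and *Itgae* in dKO, reached the level minimum only in the Foxp3+ cytokine+ cells, so that they had to be higher there. Over the other 7 and 9 genes 1 in WT and 3 in dKO were at least 2-fold higher, and the medians were 0.29 and 0.44. *Klrg1* stood at 370 against 20.1 CPM in WT (4.21, 3.81 to 4.60) and 266 against 79.9 CPM in dKO (1.74, 1.42 to 2.05). *Il1rl1* stood at 133 against 14.2 CPM in WT (3.23, 2.65 to 3.79) and 51.1 against 11.8 CPM in dKO (2.11, 1.32 to 2.92), and *Areg* at 611 against 69.2 CPM (3.14, 2.88 to 3.40) and 469 against 192 CPM (1.29, 1.07 to 1.5). *Gzmb*, the granzyme B gene, which Tregs can use for suppression, stood at 385 against 60.4 CPM in WT (2.67, 2.36 to 2.98) and 332 against 202 CPM in dKO (0.71, 0.47 to 0.95). Among all genes, 161 were higher and 74 lower with intervals on the same side of 0 in both libraries. The higher end was led by *Il1rl1*, *Klrg1*, *Ikzf2*, *Lclat1* and *Itgae*, followed by *Swap70*, *Ets2*, *Myo1e*, *Snx9* and *Pqlc1*. In WT all of these but *Ikzf2* reached the level minimum only in the Foxp3+ cytokine+ cells, so that they had to be higher there. In dKO the same held for all but *Klrg1*, *Ikzf2* and *Ets2*.

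Th1 genes were lower than in Foxp3- cytokine+ cells. In WT 4 of 19 measured were at least 2-fold lower and 2 higher (*Ccl3* and *Hopx*), with a median of -0.41, the *Ccl3* ratio of 1.64 turning to -0.57 without 1 cell and to -0.60 after thinning to 2000 UMIs, and in dKO 6 of 20 were lower and none higher, with a median of -0.60. Over the 17 WT and 14 dKO genes that reached the level minimum in both classes the medians were -0.41 and -0.57, with 3 and 4 at least 2-fold lower. *Ccl5* stood at 1755 against 2324 CPM in WT (-0.41, -0.53 to -0.29) and 4198 against 9417 CPM in dKO (-1.17, -1.22 to -1.11), and *Xcl1*, a chemokine gene of cytotoxic cells, at 50.4 against 270 CPM (-2.42, -3.20 to -1.74) and 67.0 against 148 CPM (-1.14, -1.64 to -0.68). The lower end over all genes was *H2-Aa*, *Ifitm3*, *Mctp2*, *Xcl1*, *Ugcg*, *Klrd1*, *Ly6c2*, *Ramp3*, *Cd96* and *Elmsan1*. In both libraries *H2-Aa*, *Ifitm3*, *Mctp2*, *Ugcg* and *Klrd1* reached the level minimum only in the Foxp3- cytokine+ cells. The same held for *Ramp3* in WT and *Cd96* in dKO. *H2-Aa*, of MHC class II, had no UMI in the WT Foxp3+ cytokine+ cells against 98.5 CPM, at least 11.1-fold lower, and in dKO 20.7 against 82.6 CPM (-1.99, -2.93 to -1.18). Of the Th17 genes 4 of 13 measured were at least 2-fold higher and none lower in WT, all 4 of which reached the level minimum only in the Foxp3+ cytokine+ cells, and none was higher and 2 were lower of 13 in dKO. Over the 8 WT and 9 dKO genes that reached it in both classes the medians were 0.33 and -0.22. The chemokine receptor gene *Ccr6* stood at 77.1 against 17.8 CPM in WT (2.12, 1.42 to 2.76) and 36.7 against 62.2 CPM in dKO (-0.76, -1.47 to -0.12), next to the larger share of *Il17a* cells among WT cells with *Foxp3* given above. WT *Ccr6* reached the level minimum only in the Foxp3+ cytokine+ cells and dKO *Ccr6* only in the Foxp3- cytokine+ cells.

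Sums over a class can be carried by a few cells, so the UMIs of 18 core Treg genes and of 43 Th1 and Th17 genes were also taken per 1000 UMIs of each cell. Treg genes had a median of 6.08 in WT Foxp3+ cytokine+ cells, 7.10 in Foxp3+ cytokine- cells and 2.50 in Foxp3- cytokine+ cells, and 9.30, 12.7 and 4.21 in dKO. A value above the median of Foxp3- cytokine+ cells was found in 73 of 84 WT and 176 of 183 dKO cells. Th1 and Th17 genes had medians of 6.22, 3.79 and 6.87 in WT and of 10.2, 8.41 and 9.80 in dKO. A value above the median of Foxp3+ cytokine- cells was found in 70 of 84 WT and 113 of 183 dKO cells. In dKO the Th1 and Th17 medians were 8.93, 6.23 and 6.83 in cells with 3000 or more UMIs and 10.2, 8.41 and 9.45 in cells not marked as doublets, so the class stayed above Foxp3+ cytokine- cells under each restriction alone. With both restrictions the medians were 5.004, 5.31 and 5.68 in dKO, where 29 Foxp3+ cytokine+ cells were left and lay slightly below the Foxp3+ cytokine- cells, and 5.90, 3.84 and 6.23 in WT, where 38 were left. The Treg medians were then 7.25, 6.88 and 2.51 in WT and 7.13, 9.66 and 3.65 in dKO. The doublet score is computed from the same profiles as these sums.

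**Figure D3:**
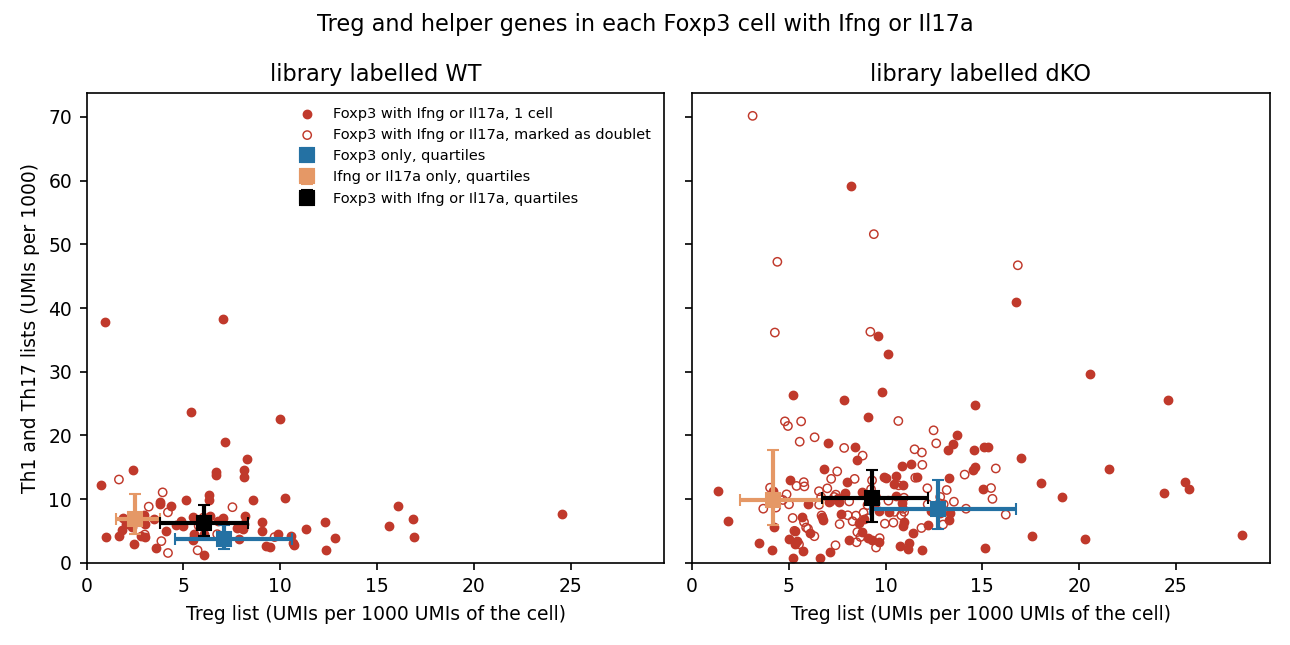
UMIs of 18 core Treg genes (x axis) and of 43 Th1 and Th17 genes (y axis), each per 1000 UMIs of the cell, in 84 WT and 183 dKO Foxp3+ cytokine+ cells; filled points are unmarked cells, open points cells marked as doublets, and squares with bars give the median and quartiles of each class. The median cell lay at 6.08 and 6.22 in WT and at 9.30 and 10.2 in dKO, between or beside the medians of the other 2 classes on the Treg axis.

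Few cells of the class held both *Ifng* and *Il17a*, namely 4 in each library. The rule asks for only 1 of these genes, so this does not show that they exclude each other. Cells with *Ifng* alone (57 WT, 119 dKO) were compared with cells with *Il17a* alone (23 WT, 60 dKO). Of the Th1 genes 10 of 17 measured were at least 2-fold higher in the *Ifng* cells of each library and 2 at least 2-fold lower in WT, but 7 of the 17 in each library reached the level minimum only in the *Ifng* cells. Over the 10 that reached it in both subsets the median log2 ratios were 0.61 in WT and 0.51 in dKO, with 3 and 4 at least 2-fold higher. Of the Th17 genes 5 of 9 and 7 of 13 were at least 2-fold lower, and 4 and 7 reached the minimum only in the *Il17a* cells. Over the other 5 and 6 the medians were -0.79 and 0.10, with 1 in each library at least 2-fold lower. Over all genes 13.6% of 2957 were at least 2-fold higher and 5.92% lower in the *Ifng* cells of WT, and 5.76% of 3787 were higher and 4.17% lower in dKO, with medians of 0.09 and 0.02. *Ccl5* stood at 2387 CPM in *Ifng* cells and 214 CPM in *Il17a* cells of WT (3.48, 2.79 to 4.27) and at 5760 and 1436 CPM in dKO (2.00, 1.83 to 2.18), and *Nkg7* at 569 and 113 CPM (2.33, 1.36 to 3.49) and at 1132 and 198 CPM (2.52, 2.07 to 3.0). *Tbx21* had 133 CPM in WT *Ifng* cells and no UMI in *Il17a* cells, at least 3.52-fold higher, and 118 and 49.5 CPM in dKO (1.25, 0.28 to 2.35). In both libraries *Tbx21* reached the level minimum only in the *Ifng* cells, so that it had to be higher there. The next 3 genes reached the level minimum only in the *Il17a* cells of both libraries and are given as values. *Ccr6* stood at 8.55 and 277 CPM in WT (-5.02, -8.15 to -2.99) and at 10.5 and 72.0 CPM in dKO (-2.78, -4.82 to -1.15), *Tmem176a* at 17.1 and 289 CPM (-4.08, -6.07 to -2.53) and at 39.3 and 176 CPM (-2.16, -3.12 to -1.27), and *Ltb4r1*, a leukotriene receptor gene, at 29.9 and 314 CPM (-3.39, -4.85 to -2.14) and at 36.7 and 126 CPM (-1.78, -2.82 to -0.81).

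Core Treg genes had no common direction between these subsets. Of 14 measured in WT 2 were at least 2-fold higher and 4 lower in *Ifng* cells, with a median of -0.25, and of 16 in dKO 2 were higher and 1 lower, with a median of 0.14. *Il2ra* stood at 163 CPM in *Ifng* cells and 629 CPM in *Il17a* cells of WT (-1.95, -2.60 to -1.31) and at 107 and 221 CPM in dKO (-1.04, -1.67 to -0.41), *Ctla4* at 1027 and 2754 CPM (-1.42, -1.69 to -1.15) and at 1837 and 2300 CPM (-0.32, -0.49 to -0.16), and *Areg*, of the tissue Treg list, at 398 and 1257 CPM (-1.66, -2.08 to -1.24) and at 335 and 617 CPM (-0.88, -1.24 to -0.52). *Icos* had ratios of -1.13 (-1.46 to -0.80) in WT and -0.93 (-1.19 to -0.67) in dKO, and *Capg*, which encodes an actin-capping protein, -1.25 (-1.72 to -0.79) and -0.79 (-1.08 to -0.51). *Ikzf2* had the opposite direction, at 723 and 289 CPM in WT (1.32, 0.69 to 2.02) and 1009 and 707 CPM in dKO (0.51, 0.24 to 0.79). *Izumo1r*, the FR4 gene, had 2.41 (0.78 to 4.74) in WT and 0.28 (-0.24 to 0.82) in dKO, *Tnfrsf4* 0.69 (0.10 to 1.34) and 0.21 (-0.0032 to 0.43), and *Il2rb* 0.72 (0.13 to 1.37) and 0.03 (-0.29 to 0.36). WT *Izumo1r* reached the level minimum only in the *Ifng* cells, so that it had to be higher there. *Nr4a1*, an immediate early gene of TCR signalling and 1 of the 2 targeted genes, was lower in *Ifng* cells, at 881 and 1899 CPM in WT (-1.11, -1.42 to -0.79) and 1696 and 3214 CPM in dKO (-0.92, -1.08 to -0.77). Cell cycle genes had medians of -1.03 in WT and -0.60 in dKO, with *Mki67* at 389 and 704 CPM (-0.86, -1.35 to -0.35) and at 162 and 342 CPM (-1.07, -1.58 to -0.57). The WT *Il17a* cells numbered 23 with 79534 UMIs in all, which limits what the low genes can show.

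**Figure D4:**
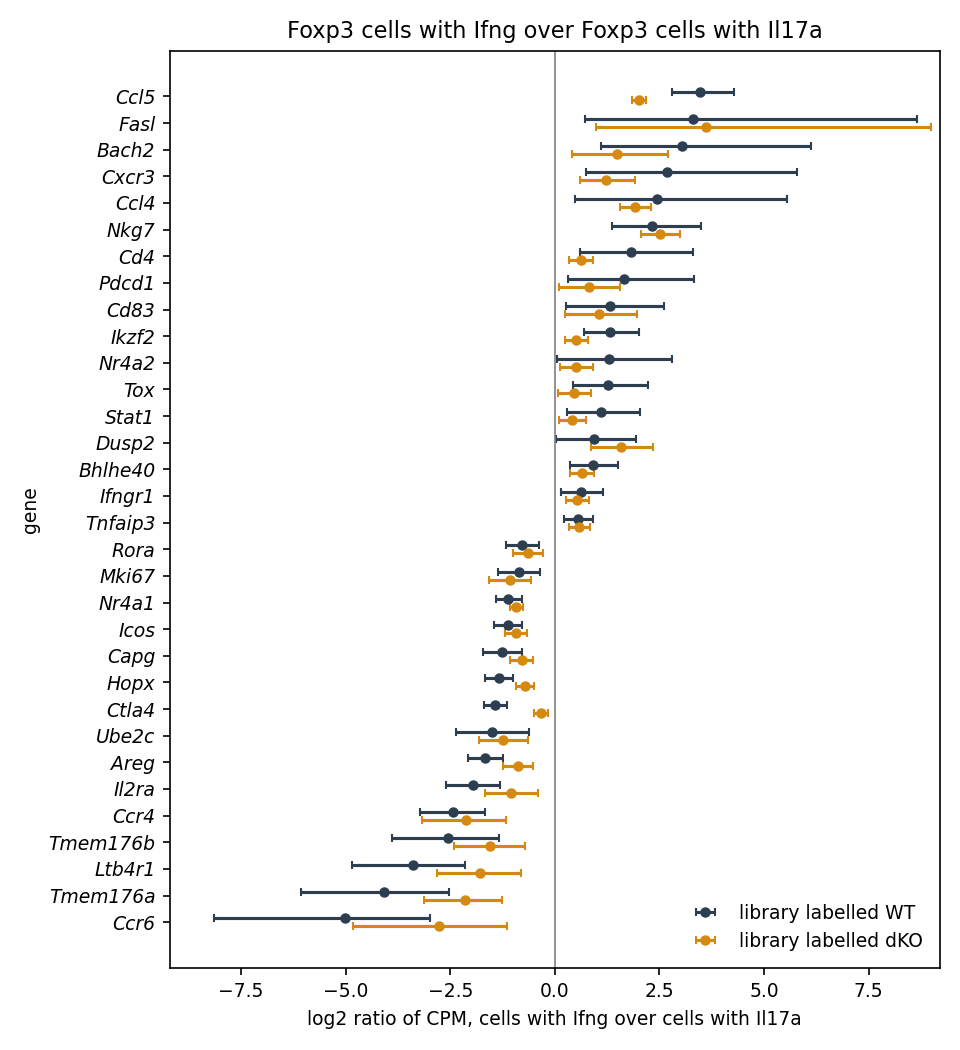
Log2 ratio of CPM in Foxp3+ cells with *Ifng* alone over Foxp3+ cells with *Il17a* alone (x axis) for the 32 genes of the fixed lists whose intervals lay on the same side of 0 in both libraries (y axis). Points are ratios and bars exact 95% intervals for counting error. Of the 32 genes 17 were higher with *Ifng*, among them *Fasl* at 3.30 (WT) and 3.61 (dKO) and *Ccl5* at 3.48 and 2.00, and 15 with *Il17a*, among them *Ccr6* at -5.02 and -2.78. The 32 include genes whose direction was set by the minimum of 50 CPM. In both libraries *Fasl* reached it only in *Ifng* cells and *Ccr6* only in *Il17a* cells.

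The dKO and WT cells of the class were compared next. Of 3936 genes, 3.66% were at least 2-fold higher and 4.52% at least 2-fold lower in the dKO than in the WT Foxp3+ cytokine+ cells. Of a fixed list of 9 genes, mostly but not only of inhibitory receptors, 7 were measured, 3 were at least 2-fold higher and none lower. Over the 4 that reached the level minimum in both libraries 1 was 2-fold higher, with a median log2 ratio of 0.45 beside -0.03 over all genes. Of 11 tissue Treg genes measured 1 was higher and 1 lower. Intervals that held 0 were found for *Pdcd1* (-0.08, -0.58 to 0.43) and *Havcr2* (0.24, -0.66 to 1.19), both inhibitory receptor genes, and for the chemokine genes *Ccl3* (0.25, -0.41 to 0.95) and *Xcl1* (0.41, -0.43 to 1.32). The dKO to WT ratio is given first for Foxp3+ cytokine+ cells and then for Foxp3+ cytokine- cells, each from 1 library per genotype and without a test. *Cd4* itself had log2 ratios of 1.89 (1.54 to 2.27) and 2.02 (1.83 to 2.22), *Ccl4* of 3.13 (2.63 to 3.67) and 3.24 (2.77 to 3.75), and the inhibitory receptor gene *Lag3* of 2.39 (1.27 to 3.75) and 3.32 (2.59 to 4.16). *Lag3* and *Entpd1* reached the level minimum only in the dKO library, and so did *Ccl4* among Foxp3+ cytokine- cells. The ectonucleotidase gene *Entpd1* had 2.15 (1.14 to 3.33) and 1.85 (1.38 to 2.36), *Tnfrsf4* 1.33 (1.09 to 1.57) and 1.26 (1.16 to 1.36), and *Tigit* 1.10 (0.76 to 1.45) and 1.81 (1.63 to 1.99). Lower in both were *Il1rl1*, with -1.39 (-2.09 to -0.70) and -0.91 (-1.16 to -0.65), the chemokine receptor gene *Ccr4*, with -1.41 (-1.99 to -0.85) and -1.86 (-2.15 to -1.57), and *Fasl*, with -1.60 (-2.44 to -0.80) and -1.88 (-2.49 to -1.26). *Fasl* reached the level minimum only in the WT Foxp3+ cytokine+ cells and stayed under it in the Foxp3+ cytokine- cells of both libraries. Among Foxp3+ cytokine- cells *Ccr4* reached it only in WT. For other genes the ratio was lower in the Foxp3+ cytokine+ cells than in the Foxp3+ cytokine- cells: *Ccl5* had 1.26 (1.13 to 1.39) and 2.90 (2.78 to 3.02), *Klrg1* -0.48 (-0.82 to -0.13) and 0.82 (0.65 to 1.0), and *Areg* -0.38 (-0.64 to -0.12) and 0.48 (0.36 to 0.60). Over genes that reached the level minimum in both libraries, the list medians were 0.48 and 0.48 for core Treg genes, -0.38 and 0.48 for tissue Treg genes, 0.18 and -0.54 for cell cycle genes and -0.60 and -1.03 for naive and central memory genes. Genotype cannot be told apart from pool or library, and marked doublets made up 16.7% of the WT and 48.1% of the dKO cells.

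Receptor sequences placed part of these cells in clones. A TRA and a TRB chain were found in 35 WT and 57 dKO Foxp3+ cytokine+ cells, of which 10 WT (28.6%, 14.6% to 46.3%) and 28 dKO (49.1%, 35.6% to 62.7%) belonged to clonotypes of at least 2 T cells. Among Foxp3+ cytokine- cells the share was 17.7% (11.47% to 25.6%) in WT and 51.0% (47.1% to 54.9%) in dKO, and among Foxp3- cytokine+ cells 53.6% (49.3% to 57.8%) and 48.3% (41.6% to 54.9%). No clonotype occurred in both libraries, out of 1437 in WT and 1373 in dKO.

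The other T cells of the same clonotypes were described next. In dKO, 24 clonotypes with a Foxp3+ cytokine+ cell held 453 other cells, of which 35.5% (31.1% to 40.1%) had *Foxp3* and 5.96% (3.96% to 8.55%) a cytokine UMI. The clonotypes of dKO Foxp3+ cytokine- cells gave 38.6% and 7.57%, and those of Foxp3- cytokine+ cells 25.8% and 13.4%. Without the marked doublets the *Foxp3* share of the dKO class was 42.5% and the cytokine share 1.49% (2 of 134 cells). Without the largest clonotype, which left 220 of the 453 other cells, the *Foxp3* shares were 31.8%, 38.4% and 11.8% and the cytokine shares 10.5%, 10.6% and 25.4%. With each clonotype given equal weight they were 38.0%, 38.0% and 9.54% for *Foxp3* and 6.24%, 8.79% and 25% for cytokines. A clonotype with cells of more than 1 class was counted for each class, as dKO clonotype 1 was with its 234 cells. In dKO the intervals of both shares overlapped between the clonotypes of Foxp3+ cytokine+ and of Foxp3+ cytokine- cells. Because these 2 sets share cells, the overlap cannot show whether the clones are alike. In WT only 8 clonotypes with 51 other cells were available, and 9.80% (3.26% to 21.4%) of these had *Foxp3* and 31.4% (19.1% to 45.9%) a cytokine UMI, against 3.29% and 33.6% for clonotypes of Foxp3+ cytokine- cells and 3.09% and 32.8% for those of Foxp3- cytokine+ cells. With the deposited clonotype numbers the WT *Foxp3* share of the class was 4.88% (6 of 123 cells), and with the TRB CDR3 alone 5.15% (7 of 136). With equal weight per clonotype the WT shares were 26.3%, 10.5% and 6.24% for *Foxp3* and 42.3%, 40.3% and 29.9% for cytokines, and without WT clonotype 1 the *Foxp3* share of the class was 6.12% (3 of 49 cells). Cells of 1 clonotype are not independent, and a *Foxp3* or cytokine UMI is missed in many cells at this depth.

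Single clonotypes ranged from almost pure *Foxp3* clones to clones with few *Foxp3* cells. WT clonotype 1, whose sequences stand above, had 3 T cells and all 3 were Foxp3+ cytokine+, with 2, 2 and 1 *Foxp3* UMIs, 1, 0 and 0 *Ifng* UMIs and 1, 1 and 2 *Il17a* UMIs. They had 4118, 3805 and 2376 UMIs, 1 TRA and 1 TRB chain each, no doublet mark, and barcodes that differed from each other at 10 or more positions. A further WT cell had the same TRA sequence and no TRB chain, and so no clonotype, and was Foxp3+ cytokine- with 6 *Foxp3* UMIs. dKO clonotype 4 had 9 T cells, of which 2 were Foxp3+ cytokine+, 6 Foxp3+ cytokine- and 1 without any of the 3 genes, and dKO clonotype 5 had 48, with 1 Foxp3+ cytokine+, 17 Foxp3+ cytokine- and 30 without any. The largest clonotype, dKO clonotype 1, had 234 T cells, of which 2 were Foxp3+ cytokine+ (both marked as doublets), 90 Foxp3+ cytokine- and 3 Foxp3- cytokine+. Mixed clones were found too: WT clonotype 2 had 22 T cells with 1 Foxp3+ cytokine+, 1 Foxp3+ cytokine- and 5 Foxp3- cytokine+ cells, and dKO clonotype 6 had 32 with 1, 2 and 12, its Foxp3+ cytokine+ cell being marked as a doublet.

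**Figure D5:**
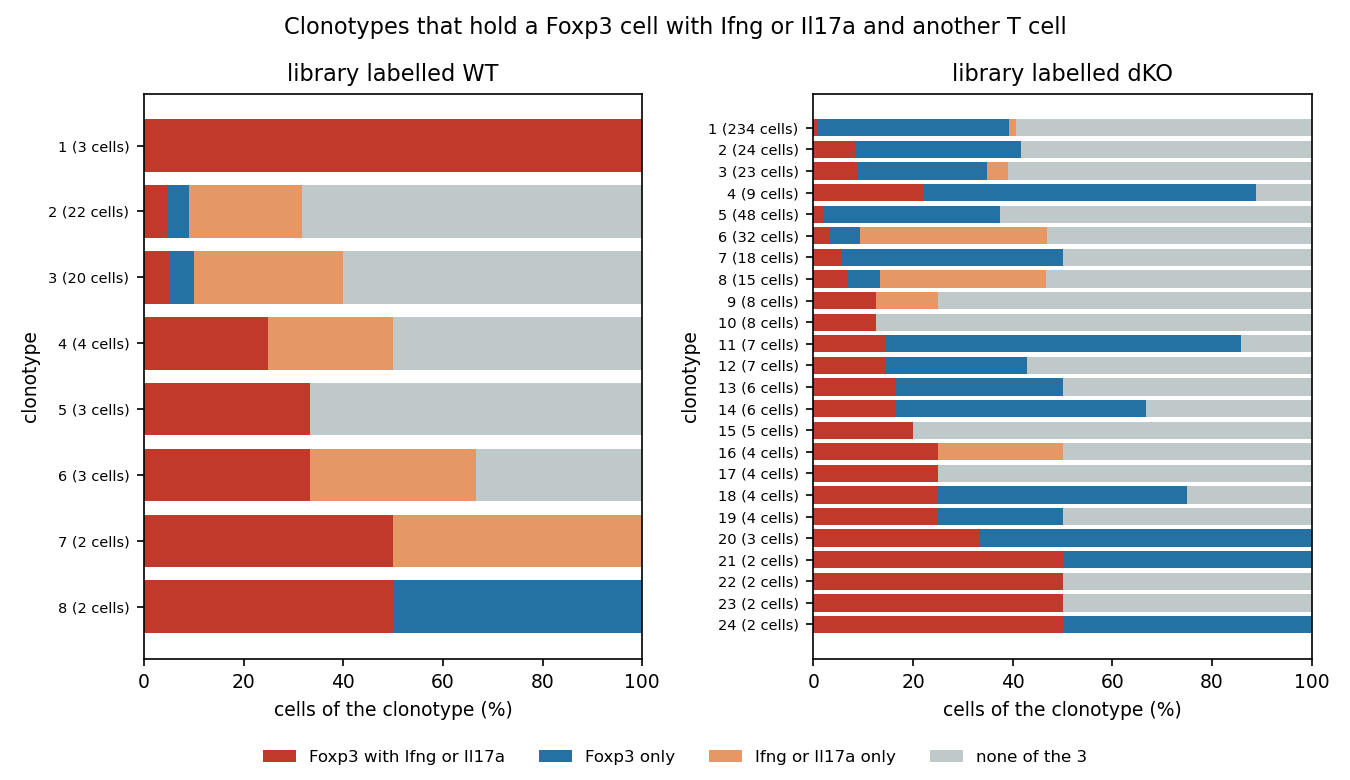
Makeup of the 8 WT and 24 dKO clonotypes that held a Foxp3+ cytokine+ cell and at least 1 other T cell; each bar is a clonotype with its number of T cells, and the x axis gives the percent of its cells in each class. All 3 cells of WT clonotype 1 with both chains were Foxp3+ cytokine+, and in dKO clonotype 1 they were 2 of 234.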

How the data were processed

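Hepatic CD4+ T cells were profiled with the 10x Genomics 5′ kit. The authors processed the reads with Cell Ranger against mm10 (per the labels, version not given in the sources used here) and deposited UMI counts per gene and cell, with no normalization, and TCR contig tables with read and UMI counts. Of 32285 genes, 32158 matched GENCODE M21.

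Cells were classed from the counts as stated above. UMIs were summed per class and library, and 2 classes were compared as log2 ratios of CPM with conditional binomial 95% intervals, Clopper-Pearson intervals for shares and exact Poisson intervals for levels. Genes needed 50 CPM in either class and 20 UMIs over both, and a difference was counted from 2-fold on the point estimate. Lists were also described over the genes with 50 CPM in both classes, a restriction chosen after seeing the data. Named genes were the 10 at each end, ranked by the smaller difference of both libraries, and genes of fixed lists; the genes in the plot of levels are examples, and a few list genes are not reported here. Doublets were marked from Scrublet scores (scanpy 1.11.5) as the top share of cells, 0.8% for every 1000 cells of the library, a rule chosen after the automatic threshold failed, or from 2 or more TRB chains. TMM factors came from edgeR 4.0.16 in R 4.3.3, and intervals from scipy 1.17.1, run with pandas 2.3.3 and numpy 2.4.6 under Python 3.11.15, with plots from matplotlib 3.10.9. Only the log2 ratio and its interval were tested on simulated counts. The class and the gene lists were chosen with earlier results of these data known.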

Additional observations from a re-analysis of the deposited data

Results flagged for a closer look

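For 11 ratios the 2 libraries had intervals on opposite sides of 0. With 1 library per genotype the difference between them was not tested. Against Foxp3+ cytokine- cells, the WT and dKO log2 ratios were -1.75 and 0.55 for *Ccr7*, 0.38 and -0.25 for *Il2rb*, -0.13 and 0.091 for *Junb*, 0.35 and -0.95 for *Klrg1*, -0.99 and 0.82 for *Pclaf* and -0.85 and 0.41 for *Ube2c*. Against Foxp3- cytokine+ cells, they were 1.64 and -1.65 for *Ccl3*, 2.12 and -0.76 for *Ccr6*, -0.75 and 0.56 for *Cd74*, -1.02 and 0.41 for *Cxcr3* and 1.30 and -0.86 for *Il1r1*. In WT *Ccl3*, *Ccr6* and *Il1r1* reached the level minimum only in the Foxp3+ cytokine+ cells, so that they had to be higher there. In dKO *Ccr6* and *Il1r1* reached it only in the Foxp3- cytokine+ cells, so that they had to be lower in the class. WT *Ccr7* reached it only in the Foxp3+ cytokine- cells. *Junb* is an immediate early gene, *Il2rb* a chain of the IL-2 receptor, and *Pclaf* and *Ube2c* are cell cycle genes. Some pairs did not stay opposed. In WT, 22 of 28 *Ccl3* UMIs came from 1 cell, and its ratio was -0.57 without that cell and -0.60 after thinning to 2000 UMIs. The dKO ratio of *Junb* was -0.0099 with TMM factors, and with at least 2 UMIs of *Foxp3* and of a cytokine that of *Cxcr3* was -0.23 in dKO and that of *Pclaf* 0.031 in WT.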

How the results depend on the processing

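No paired analysis was possible because there was 1 RNA library per genotype. All values below are counts, shares or log2 ratios without a test, and the cause of each shift was not tested. Requiring 2 *Foxp3* UMIs left 39 WT and 88 dKO Foxp3+ cytokine+ cells. Requiring 2 cytokine UMIs left 46 and 77, or 10.5% and 2.50% of *Foxp3* cells. Cells with TRA and exactly 1 TRB chain gave 33 and 53 (22.9% and 7.95%), thinning to 1000 UMIs 25 and 57 (10.4% and 3.30%), thinning to 2000 UMIs 32 and 75 (7.68% in dKO), and 1 cell per clonotype 28 and 33 (8.15% in dKO). Removing marked doublets left 95 dKO cells (3.62%).

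Genes with a 2-fold difference from Foxp3+ cytokine- cells numbered, in WT and dKO, 424 and 196 with a 20 CPM minimum, 4962 and 6292 with no level filter, 196 and 72 from means of single cells' CPM, 195 and 161 without marked doublets, 342 and 126 after thinning to 2000 UMIs, and 603 and 379 for cells with at least 2 UMIs of *Foxp3* and of a cytokine. With no level filter lower genes outnumbered higher ones, at 3292 to 1670 and 4797 to 1495. Against Foxp3- cytokine+ cells the numbers were 537 and 295, 7150 and 5186, 404 and 194 after thinning, and 783 and 432 for cells with at least 2 UMIs of each, with 293 in dKO without marked doublets.

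Of 102 counts, shares and other summary values, 55 were counted as unmoved and 47 as moved. Of 2203 values of single genes, 1876 stayed within their interval, 308 moved beyond it and 19 changed sign. With at least 2 UMIs of each (chosen after seeing the data), the ratio to Foxp3+ cytokine- cells became -0.66 for *Klrk1*, 0.031 for *Pclaf*, -0.98 for *Tbx21* and 0.063 for *Tnfrsf9* in WT, and -0.19 for *Ccl4*, -0.073 for *Ccl5* and 0.13 for *Myo1e* in dKO, and the ratio to Foxp3- cytokine+ cells 0.15 for *Pclaf* in WT and -0.23 for *Cxcr3* and 1.14 for *Il17f* in dKO. TMM scaling gave -0.0099 for *Junb* against dKO Foxp3+ cytokine- cells, and removing doublets -0.75 for *Sidt1*. Thinning gave -0.00090 for *Lpp* there and, against Foxp3- cytokine+ cells, -0.60 for *Ccl3* in WT and 0.055 for *Klf2*, -0.14 for *Mcm5*, -0.051 for *Mki67* and -0.17 for *Top2a* in dKO. Without 1 cell, also chosen after seeing the data, WT *Ccl3* was at -0.57. Among other cells of the clonotypes, the WT *Foxp3* share was 26.3% with each clonotype counted once. In dKO the *Foxp3* and cytokine shares were 42.5% and 1.49% without marked doublets, and the cytokine share 10.5% without the largest clonotype. Depth limits the class itself, since a single UMI of *Foxp3* or of a cytokine is missed in many shallow cells and few UMIs stand behind the low genes.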

Other observations

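Some further single genes differed between the class and Foxp3+ cytokine- cells in the same direction in both libraries. They were picked after their values were seen. *Il18r1*, a receptor chain for IL-18, stood at 234 against 150 CPM in WT (log2 ratio 0.64, 0.24 to 1.04) and 140 against 95.3 CPM in dKO (0.56, 0.22 to 0.89). *Tox*, a factor of chronically stimulated T cells, was lower at 344 against 660 CPM in WT (-0.94, -1.24 to -0.65) and 431 against 555 CPM in dKO (-0.36, -0.55 to -0.19), and *Gata3*, the Th2 lineage factor also used by tissue Tregs, at 136 against 189 CPM (-0.47, -0.97 to -0.01) and 94.1 against 162 CPM (-0.79, -1.19 to -0.41). Within the class, *Furin* was lower in cells with *Ifng* alone than in cells with *Il17a* alone, at 59.9 and 339 CPM in WT (-2.50, -3.55 to -1.52) and 60.3 and 176 CPM in dKO (-1.54, -2.35 to -0.76), and so was *Ccr4*, at 98.4 and 528 CPM (-2.42, -3.23 to -1.66) and 34.1 and 149 CPM (-2.12, -3.17 to -1.16). In dKO *Ccr4* reached the level minimum only in the cells with *Il17a* alone, so that it had to be higher there.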
